A study of Mus musculus with 10 samples.

Results

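The mouse autosomes were divided into fixed 10 Mb windows, and the expression of the genes in each window was followed across 5 groups of cultured mesenchymal stem cells and a tumor line derived from them. A window was kept if it held at least 10 genes whose array probe was well above background on all 10 arrays, with the brightest probe standing for a gene and with probe positions taken from mm9. This gave 252 windows of 258, holding 17177 of the 17202 autosomal genes that passed, with a median of 59 genes per window (range 11 to 235). The windows were thus selected on the detection of their genes on these arrays, and the median log2 difference between groups over the genes of a window is the measure they are defined by, so window medians are given as a description. The windows just outside the limit held 3 to 6 genes and those just inside it 11 to 14. Windows are numbered along each chromosome, so that chr3 window 14 spans 130 to 140 Mb of chromosome 3.

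Gene expression in neighbouring genes is known to vary together for several reasons, among them shared chromatin domains, clusters of related genes and, in tumor cells, gains and losses of chromosome segments. Mesenchymal stem cells are stromal progenitors that can form bone, fat and cartilage, and Rb1 and Trp53 encode the retinoblastoma protein, which restrains entry into S phase, and p53, which halts or kills damaged cells. Loss of both genes is common in osteosarcoma, a tumor known for widely rearranged chromosomes. The arrays measured RNA alone, so the windows describe expression along chromosomes and not the chromosomes themselves.

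All cells came from mice of the FVB strain, and each group had 2 arrays, 1 for each of 2 independent cultures collected in exponential growth. Wild-type adipose-derived cells (ASC) and wild-type bone marrow cells (BM-MSC) are labelled WT and non-tumorigenic, and no osteogenic priming is given for them. Null ASC and null BM-MSC are labelled as Rb p53 double-knockout. By the culture protocol they carried loxP-flanked Rb and p53 alleles, spent 10 days in osteogenic medium and were then infected with an adenovirus that expresses Cre from the CMV promoter. The null ASC are labelled non-tumorigenic and the null BM-MSC tumorigenic. The tumor line is a cell line from a tumor that grew after subcutaneous inoculation of the primed null BM-MSC, so both of its arrays are cultures of a single line that had grown in an animal. Genotype, osteogenic priming and the adenovirus infection described for the null cultures cannot be told apart in comparisons with wild-type cells. The p-values measure only the spread between such duplicates. The line also lies on a slide of its own, and slide and group cannot be told apart there.

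The targeted genes were lower in all cells labelled double-knockout, to unlike degrees. Rb1 (probe at chr14:73595408-73595467, mm9) stood at 1.58 and 1.59 in wild-type and -1.61 and -1.67 in null ASC, at 2.18 and 2.19 in wild-type and 0.94 and 0.82 in null BM-MSC, and at -1.68 and -1.66 in the tumor line (log2 signal relative to the 75th percentile of the array). Trp53 stood at 1.38 and 1.30 in wild-type ASC, at 1.10 and 0.98 in wild-type and -0.61 and -0.83 in null BM-MSC. It was above background on 1 of 2 arrays of null ASC (-4.20 and -4.82) and on neither of the tumor line. In null BM-MSC both genes thus stayed above background on both arrays, with Rb1 lower than in wild-type cells by a difference of -1.30 and Trp53 by -1.76, against -3.23 and -5.85 in null ASC (limma adjusted p of 7.3e-04 or less for each). The null BM-MSC values therefore do not show a complete loss of these transcripts, and null is used below only as the name of the cultures labelled double-knockout. Which exons were deleted is not said by the labels.

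All 10 mesenchymal stem cell markers examined passed the background limit on each of the 10 arrays. No skeletal muscle marker of 3 was above it on both arrays of a group, and Des, a muscle intermediate filament, was above it on 1 wild-type ASC array. Counted the same way, 5 to 7 of 7 macrophage and myeloid markers were above background in each group, and of 7 osteogenic markers 6 were in wild-type ASC, 7 in wild-type and in null BM-MSC, 4 in null ASC and 4 in the tumor line. Sp7, the osteoblast transcription factor, Alpl, alkaline phosphatase, and Bglap, osteocalcin, were above background on neither array of the tumor line. That line is labelled as derived from osteogenic-primed cells, and Runx2, Ibsp, Spp1 and Col1a1 were above background on both of its arrays. In null ASC, Sp7 was above background on neither array and Bglap on 1. Ibsp was above it on neither array of wild-type or null ASC. Counted on both arrays of a group, 3 or 4 of 5 adipogenic and 2 or 3 of 5 endothelial markers were above background. The same held for 1 or 2 of 4 epithelial and 1 or 2 of 4 lymphoid and erythroid markers. Pecam1, Kdr, Krt18 and Cd3e of these lists were above background on both arrays of every group, so detection was not limited to stromal markers. The part of these markers in the results was not tested. Between 53.3% and 58.4% of spots were well above background on an array, no spot was saturated, and precision is set by having 2 arrays per group. Fewer cells of a kind and less RNA per cell cannot be told apart in such bulk samples. The median over a window of replicate 2 minus replicate 1 ranged from -0.11 to 0.19 over all groups and windows (log2), with a standard deviation of 0.0190 to 0.0297 within a group.

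The 4 promoters below come from the windows with the highest and the lowest median in the tumor line, and were chosen to show how unlike the promoters of genes called in the same direction can be. They are the 250 bases before the RefSeq start (GRCm38.p6, all on the minus strand) of the genes with the most and the fewest CpG dinucleotides among 15 changed genes in each window that had a single promoter entry. Capitals mark the motif CG, which reads the same on both strands and was found in 92.1% of 32851 promoters of that length, with a median of 6 per promoter.
Tet2: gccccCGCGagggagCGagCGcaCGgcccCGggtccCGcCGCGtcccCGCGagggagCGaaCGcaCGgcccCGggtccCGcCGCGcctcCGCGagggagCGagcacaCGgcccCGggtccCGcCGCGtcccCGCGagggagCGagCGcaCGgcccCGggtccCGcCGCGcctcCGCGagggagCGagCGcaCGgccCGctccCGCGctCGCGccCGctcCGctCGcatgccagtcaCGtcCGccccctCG
Dapp1: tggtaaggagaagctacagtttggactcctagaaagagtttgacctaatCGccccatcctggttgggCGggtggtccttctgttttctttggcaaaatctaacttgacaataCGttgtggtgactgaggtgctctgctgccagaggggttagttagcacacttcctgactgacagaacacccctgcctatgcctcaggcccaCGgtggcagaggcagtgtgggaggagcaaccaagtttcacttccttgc
Pip4k2a: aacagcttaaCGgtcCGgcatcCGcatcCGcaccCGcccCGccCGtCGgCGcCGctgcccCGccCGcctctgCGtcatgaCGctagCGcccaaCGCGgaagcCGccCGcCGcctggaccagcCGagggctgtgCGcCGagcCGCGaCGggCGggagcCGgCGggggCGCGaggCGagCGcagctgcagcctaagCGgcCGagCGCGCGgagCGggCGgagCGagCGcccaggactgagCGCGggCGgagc
Itih2: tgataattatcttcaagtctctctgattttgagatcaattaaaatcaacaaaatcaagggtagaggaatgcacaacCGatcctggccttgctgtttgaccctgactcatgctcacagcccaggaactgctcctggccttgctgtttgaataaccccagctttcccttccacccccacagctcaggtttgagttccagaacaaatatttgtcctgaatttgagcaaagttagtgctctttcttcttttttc
Tet2 encodes an enzyme that oxidises methylated cytosine in DNA, and its promoter (chr3:133544391-133544640) held 51 CpG. Dapp1, an adaptor protein that binds phosphoinositides, has a promoter (chr3:137981550-137981799) with 4. Both lie in chr3 window 14. Tet2 stood at 0.60 and 0.52 in null BM-MSC and at 2.02 and 1.97 in the tumor line, and Dapp1 at 0.97 and 1.00 against 2.16 and 2.21. The tumor line was above null BM-MSC on both arrays for each, by 1.43 ± 0.11 and 1.20 ± 0.08 (log2 difference ± SE, n = 2 per group, limma adjusted p = 3.1e-05 and 1.5e-05). In chr2 window 2, Pip4k2a, a phosphoinositide kinase with 45 CpG in its promoter (chr2:18998122-18998371), fell by 0.86 on the log2 scale. Itih2, a heavy chain of inter-alpha-trypsin inhibitor with 1 CpG in its promoter (chr2:10130684-10130933), fell by 1.29 (limma adjusted p = 1.8e-05 and 1.7e-04). Pip4k2a stood at -0.80 and -0.77 in null BM-MSC, -1.34 and -1.29 in wild-type BM-MSC and -1.71 and -1.58 in the tumor line. Itih2 stood at -1.61 and -1.64 in the tumor line but at -2.99 to -2.27 in ASC, so the marrow cells were the high ones. No comparison of promoter classes over whole windows is given, and only 79.4% of the 11775 member genes with a plain symbol had a promoter entry.

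In the tumor line, the expression of whole chromosomes and long segments stood apart from null BM-MSC, the kind of cells from which the line was derived. The arrays of the line and of null BM-MSC were compared as unpaired groups. Of the 252 windows, 204 (81%) passed the test (limma on the window's value in each array, adjusted p under 0.05), 103 higher and 101 lower. The direction is that of the window median, and in 3 of the windows that passed the fitted difference had the other sign. Small medians passed too, and 94 windows (37.3%) both passed and had a median of at least 0.3 from 0, with 47 higher and 47 lower. These are called shifted. Among single genes 35.1% were called higher and 33.9% lower of all 22666 tested, so a call by itself is common here. Window medians ran from -0.67 to 1.11 with a standard deviation of 0.35, while the median over all member genes was -0.02. The plot of window medians along the chromosomes shows long stretches of equal sign, and adjacent windows correlated at r = 0.72 over 231 neighbouring pairs, which share arrays. Such stretches were not confined to the tumor line. In marrow against fat adjacent windows correlated at 0.51 in wild-type and 0.43 in null cells. In null against wild-type cells they did so at 0.13 in BM-MSC and 0.12 in ASC. Against wild-type BM-MSC, which shares the tumor line arrays, 195 windows (77.4%) passed and 88 (34.9%) were shifted, 48 higher and 40 lower, with 33.9% of all genes called higher and 33.4% lower.

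**Figure D1:**
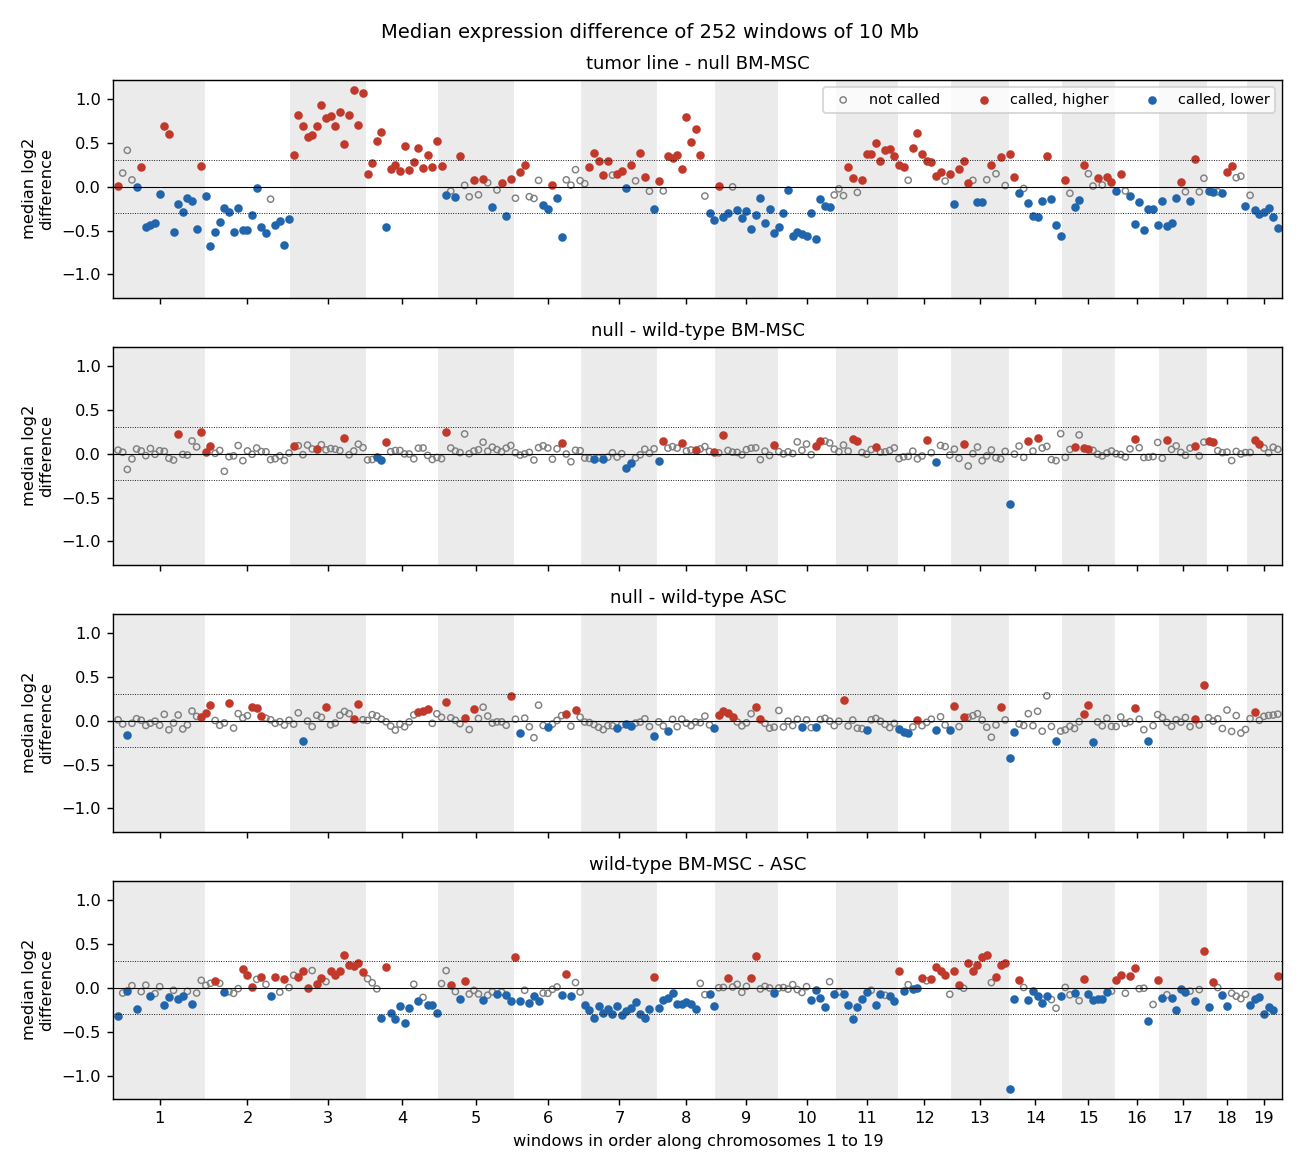
Median log2 difference (y axis) of each of the 252 windows of 10 Mb in order along chromosomes 1 to 19 (x axis), for the tumor line against null BM-MSC, null against wild-type BM-MSC, null against wild-type ASC and wild-type BM-MSC against ASC; filled points passed the test and dotted lines mark 0.3 from 0. In the tumor line 94 windows passed and lay beyond the dotted lines, and in the null cells of marrow 1 did.

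Chromosome 3 was higher along its whole length by window medians. All 16 of its windows were shifted upward, with medians of 0.37 to 1.11, and the median of its 870 genes was 0.73, a 1.66-fold higher signal. On it 580 genes passed the test upward and 125 downward, so that 66.7% were called higher, against 35.1% of all genes tested on the array. The chromosome's median, relative to each gene's mean over all arrays, was 0.69 and 0.70 on the tumor line arrays and -0.04 and -0.03 in null BM-MSC. It was -0.06 and -0.07 in wild-type BM-MSC, -0.29 and -0.29 in wild-type ASC and -0.24 and -0.22 in null ASC. The tumor line arrays lay above all 8 others, as the plot of chromosome medians by array shows. Such separation was common, as they also lay above all others on chromosomes 8, 11, 12 and 13. On chromosomes 1, 2, 9, 10, 14, 16, 17 and 19 they lay below all others.

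**Figure D2:**
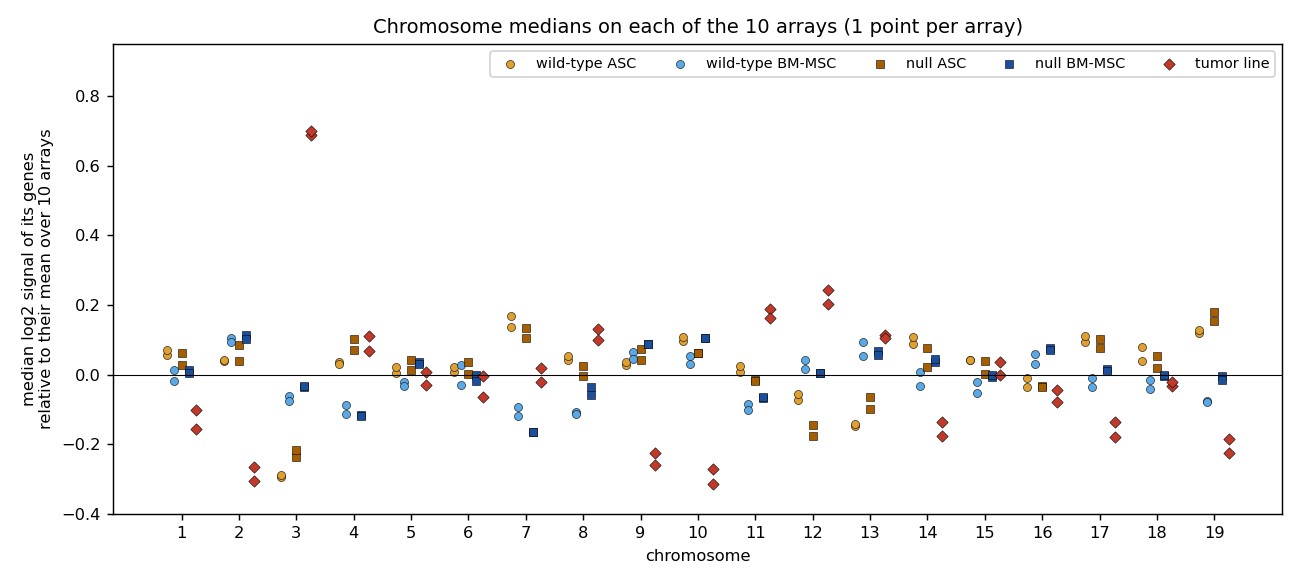
Median over the member genes of each chromosome (x axis) of the log2 signal relative to the gene's mean over the 10 arrays (y axis); each point is an array, coloured by group. On chromosome 3 the tumor line arrays sit at 0.69 and 0.70, above all other arrays. Both also lie above all others on chromosomes 8, 11, 12 and 13. They lie below all others on chromosomes 1, 2, 9, 10, 14, 16, 17 and 19.

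The highest window was chr3 window 14 (130 to 140 Mb, 44 genes), with a median of 1.11. Its value on each array is that of the window used in the test. The median difference was 1.16 for its 35 genes with a plain symbol, but -0.21 for 6 gene models or clones. For 3 long intergenic RNA (lincRNA) probes it was -0.40. The value of the window was 0.77 and 0.80 on the tumor line arrays, -0.06 and -0.00 in null BM-MSC, -0.11 and -0.06 in wild-type BM-MSC, -0.31 and -0.41 in wild-type ASC and -0.24 and -0.19 in null ASC. The tumor line was above every other array, in a window chosen for its high median on these arrays. Of its 44 genes 31 were called higher and 7 lower, where 35.1% and 33.9% of all genes were. Cenpe, a kinesin that carries chromosomes to the spindle equator (probe at chr3:134936387-134936446, mm9), rose from 4.29 and 4.46 in null BM-MSC to 6.62 and 6.48. Tspan5, a tetraspanin membrane protein, rose by 2.61 ± 0.08, Slc39a8, a zinc and manganese importer, by 2.54 ± 0.10, and Bdh2, a cytosolic dehydrogenase, by 2.70 ± 0.04 (all limma adjusted p of 3.3e-06 or less). Against the window, Adh1, alcohol dehydrogenase, stood at 6.48 and 6.53 in null BM-MSC and at -1.40 and -1.27 in the tumor line, a fall by 7.84 on the log2 scale (limma adjusted p = 2.0e-08). The fall of Adh1 was larger than any rise named in its window.

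The next highest windows also lay on chromosome 3. In chr3 window 16 the median was 1.18 for 20 genes with a plain symbol and 0.13 for 3 gene models or clones. In chr3 window 7 it was 1.05 for 27 such genes, 0.55 for 10 models or clones and 0.39 for 6 lincRNA probes. In chr3 window 16 (median 1.06, 23 genes), Miga1, which acts in mitochondrial fusion, stood at -3.50 and -3.39 in null BM-MSC and at 2.13 and 2.16 in the tumor line. It was also below the tumor line in ASC, at -0.18 and -0.08 in wild-type and 0.66 and 0.61 in null cells. Cth, an enzyme of cysteine synthesis, rose by 3.69 ± 0.14 and Depdc1a, a gene of mitosis, by 1.72 ± 0.17, whereas Wls, needed for Wnt secretion, fell by 0.59. In chr3 window 7 (median 0.93, 43 genes), Ppm1l, a protein phosphatase, rose by 5.98 ± 0.09. Ptx3, a soluble pattern recognition protein of stromal cells, fell from 2.77 and 2.67 to -2.18 and -1.98 in the same window.

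Chromosomes 2, 10, 9 and 19 were lower. The median of the 1365 member genes of chromosome 2 was -0.40, 18 of its 19 windows passed downward, 13 of them shifted, and 55.5% of its genes were called lower, against 33.9% of all genes tested. Chromosome 10 had a median of -0.40 (12 of 13 windows lower, 6 shifted), chromosome 9 of -0.32 (11 of 13 lower, 6 shifted) and chromosome 19 of -0.22 (6 of 7 lower, 3 shifted). In a run of 10 adjacent windows from 10 to 110 Mb of chromosome 2 every median was -0.24 or below, and a run of 6 covered 30 to 90 Mb of chromosome 10, with -0.30 to -0.59. A run is taken here as at least 3 adjacent kept windows that passed with the same sign and medians of at least 0.2 from 0.

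The lowest window was chr2 window 2 (10 to 20 Mb, 37 genes), with a median of -0.67. Its value was -0.29 and -0.47 on the tumor line arrays and 0.19 and 0.19 in null BM-MSC. In the remaining groups it ranged from -0.03 to 0.17, so the tumor line lay below all other arrays. This window too was chosen for its median on these arrays. Plxdc2, a membrane protein (probe at chr2:16673217-16673276, mm9), fell from 6.66 and 6.60 in null BM-MSC to 2.35 and 2.29. It was at 4.04 and 4.04 in wild-type ASC and at 2.45 and 2.37 in null ASC, so the marrow cells were the high ones. Bmi1, a Polycomb protein that represses Cdkn2a, stood at 3.27 and 3.25 in null BM-MSC and at 1.59 and 1.80 in the tumor line, below all other groups. Hacd1, an enzyme of very long chain fatty acid synthesis, fell by 2.74, and Rsu1, a partner of integrin adhesions, by 1.78. Sfmbt2, also a Polycomb protein, rose by 2.52 ± 0.07 against its window.

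In chr2 window 18 (median -0.67, 87 genes), Lama5, a laminin chain of basement membranes, fell by 3.65 and Zbp1, a sensor of left-handed nucleic acid, by 1.96. Aurka, a mitotic kinase, rose by 0.68 ± 0.07. In chr10 window 9 (median -0.59, 141 genes), Igf1, a growth factor for mesenchymal cells, stood at 2.99 and 3.01 in null BM-MSC and at -3.47 and -3.58 in the tumor line. All 8 other arrays were at 2.99 or above for Igf1, so the groups did not overlap. Tle2, a corepressor of the Groucho family, fell by 2.90 in that window.

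Set against wild-type BM-MSC, the extreme windows again lay on chromosomes 3, 2 and 10, in a comparison that shares the tumor line arrays and in which the genes left out by the detection rule did not go with chromosome 10. In chr3 window 2 (median 0.92, 26 genes) Pde7a, a phosphodiesterase of cAMP, stood at -0.05 and 0.04 in wild-type BM-MSC and at 1.93 and 1.99 in the tumor line, above all other arrays. E2f5, an E2F factor that binds pocket proteins, rose by 1.86 ± 0.11 there. Cyp7b1, an oxysterol hydroxylase, stood at -0.65 and -0.62 in wild-type BM-MSC and 3.77 and 3.79 in the tumor line, but at 4.92 to 5.82 in ASC, so the tumor line lay between the tissues. Fabp4, a fatty acid carrier of fat cells, fell by 1.70 and Cp, ceruloplasmin, by 1.74 against that window. In chr2 window 3 (median -0.64, 131 genes) Col5a1, a chain of type V collagen, stood at 6.58 and 6.51 in wild-type BM-MSC and at 3.58 and 3.69 in the tumor line, below all other arrays. Mastl, a mitotic kinase, rose by 1.08 ± 0.07 in the same window. In chr10 window 4 (median -0.62, 51 genes) Marcks, a substrate of protein kinase C, fell by 2.41 and Lama4, a laminin chain, by 1.67.

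Other chromosomes changed over part of their length. On chromosome 11 a run of 7 windows from 60 to 130 Mb had medians of 0.29 to 0.49, while chr11 window 1, window 2 and window 5 had -0.02, -0.10 and -0.07. On chromosome 8 the 8 windows from 20 to 100 Mb were higher, up to 0.79 in chr8 window 7, and chr8 window 12 and window 13 were lower, at -0.30 and -0.38. Chromosome 4 passed upward in 15 of its 16 windows, and the exception, chr4 window 5, was at -0.46. Chromosome 12 held a run of 5 higher windows from 30 to 80 Mb with medians of up to 0.62. On chromosome 1, window 11 and window 13 were at 0.69 and 0.60, while window 7, window 8 and window 9 were at -0.46, -0.44 and -0.41 and window 14 at -0.51. The window between the higher ones held 4 genes and was left out. Chromosomes 5, 6, 13, 15 and 18 had medians of -0.04 to 0.05 and 4 shifted windows in all.

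Detection on all 10 arrays decided which genes entered a window, so the genes left out offer a separate measure. Over 704 genes well above background on the 4 arrays compared but not on all 10, chromosome medians had the sign of the rule's genes for 14 of 19 chromosomes (r = 0.67 over 19 chromosomes of the same arrays, a description). They were -0.52 for chromosome 2 (46 genes), -0.49 for chromosome 10 (45 genes) and -0.31 for chromosome 9 (34 genes), where the members had -0.40, -0.40 and -0.32. For chromosome 3 the 66 genes left out had a median of 0.18, below the 0.73 of the members, and for chromosome 11 44 genes had -0.03 against 0.27. The sign also differed on chromosome 7 (-0.34 against 0.17 in the members) and chromosome 15 (-0.52 against 0.04). It differed too on chromosome 13 (-0.37 against 0.05) and chromosome 8 (-0.0067 against 0.13). Over single windows with at least 3 left-out genes r was 0.21 (123 windows), and 31 of 47 shifted windows had the same sign. In those shifted higher the left-out genes had a typical (median) window median of 0.11, where the members had 0.49. In those shifted lower it was -0.30, where the members had -0.46. Against wild-type BM-MSC the genes left out followed the members less closely, with the same sign for 11 of 19 chromosomes. Their medians there were 0.10 for chromosome 10 and 0.12 for chromosome 9, where the members had -0.32 and -0.30. For chromosome 2 they had -0.10 against -0.40, and for chromosome 3 0.29 against 0.74.

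Medians differed by kind of transcript, in values given here without a test. The shifted windows were chosen by medians of these same genes on these arrays, and most of the genes had a plain symbol. The order of the kinds in shifted windows is therefore partly set by that choice. In windows shifted upward the median was 0.58 for 2280 genes with a plain symbol, 0.33 for 608 gene models and clones and 0.05 for 340 lincRNA probes. In windows shifted downward these medians were -0.47, -0.23 and -0.47. In windows that were not shifted, lincRNA probes had a median of -0.23. Genes in the lowest tercile of signal had a median of 0.19 in the higher windows and those in the highest tercile 0.51, against -0.48 and -0.41 in the lower windows. Window medians correlated weakly with the number of genes (r = -0.06), their mean level (r = 0.07) and the share of lincRNA probes (r = -0.09) over the 252 windows.

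Known genes of growth and cell cycle control were read against their windows. Of 29 such genes 28 were measured, and 26 were members. Against null BM-MSC 13 rose, 9 fell and 6 did not pass in the tumor line, where 35.1% of all genes were called higher and 33.9% lower. Of the 17 that passed in a window that passed, 11 moved with their window and 6 against it. The plot of these genes shows that most single changes were far larger than the median of the window. A single gene varies more than a median over many genes. The standard deviation was 1.14 over all member genes and 0.35 over window medians, so such gaps are not particular to this list.

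**Figure D3:**
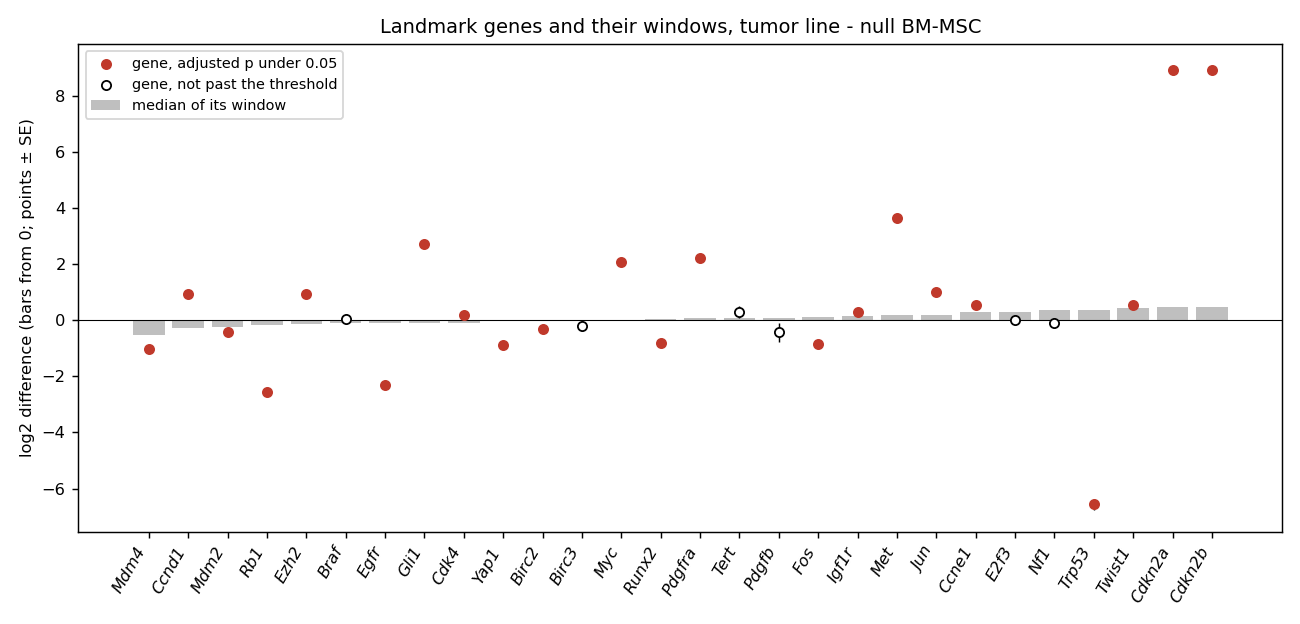
Log2 difference between the tumor line and null BM-MSC (y axis) of 28 growth and cell cycle genes (points, ± SE, n = 2 arrays per group) and of the window that holds each (grey bars), ordered by the window's median (x axis). Cdkn2a and Cdkn2b stand at 8.91 and 8.93 over a window at 0.47, and Trp53, not well above background in the tumor line, is drawn at its measured difference.

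The tumor suppressors of chr4 window 9 (80 to 90 Mb, 47 genes) differed most. Cdkn2a, which encodes p16INK4a and p19ARF, stood at 3.44 and 3.34 in wild-type BM-MSC, at -1.98 and -1.54 in null BM-MSC and at 7.23 and 7.08 in the tumor line. In ASC it stood at 5.06 and 4.87 in wild-type and at 5.40 and 5.41 in null cells, so null BM-MSC were below and the tumor line above all other arrays. Cdkn2b, which encodes p15INK4b, stood at 2.91 and 2.88, -3.43 and -3.40, and 5.51 and 5.52 in the same order of marrow groups. The window did not follow in the null cells: its median in null against wild-type BM-MSC was -0.00 (limma adjusted p = 0.23), and 0.47 in the tumor line against null BM-MSC. Within 1 Mb of Cdkn2a, 21 further member genes had a median of 0.05 in null against wild-type BM-MSC, with 2 called higher and 6 lower, where 19.6% and 19.3% of all genes were.

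The targeted genes lay in windows with small medians in the null cells. The window of Rb1, chr14 window 8, had a median of 0.06 in null marrow cells, -0.12 in null ASC and -0.16 in the tumor line against null BM-MSC. Trp53, above background on neither tumor line array, was at least 22.8-fold lower in the tumor line than in null BM-MSC, taking the dimmest signal above background on each array as the level of the dim probe. Its window, chr11 window 7, was higher in the tumor line by 0.38, and of 88 member genes within 1 Mb 50 were called higher and 19 lower, where 35.1% and 33.9% of all genes were.

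Among the other genes, Met, the receptor of hepatocyte growth factor, rose by 3.65 ± 0.06 in a window with a median of 0.17. Myc, a transcription factor of growth, stood at 1.26 and 1.21 in null BM-MSC and at 3.18 and 3.43 in the tumor line, in a window at 0.01. Pdgfra, a growth factor receptor of mesenchymal cells, rose by 2.23 ± 0.07, and Ccnd1, the cyclin that drives Cdk4, by 0.92 ± 0.07 although its window was at -0.26. Mdm4, an inhibitor of p53, fell by 1.04 in a window at -0.51. Yap1, an effector of the Hippo pathway, and its neighbour Birc2, an inhibitor of apoptosis, fell by 0.89 and 0.31 in a window at 0.01. Nf1 and E2f3 did not pass, with differences of -0.10 and 0.02.

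Null cells differed little from wild-type cells of the same tissue over windows. In BM-MSC 44 windows (17.5%) passed, 35 higher and 9 lower, and a single window was shifted (0.397%). In ASC 59 windows (23.4%) passed, 36 higher and 23 lower, and 2 were shifted (0.794%). Of all genes tested 19.6% were called higher and 19.3% lower in BM-MSC, and 21% and 19.9% in ASC. The median over all member genes was 0.02 in BM-MSC and -0.01 in ASC. The standard deviation of window medians was 0.083 and 0.094, against 0.35 in the tumor line, and chromosome medians ran from -0.03 to 0.06 and from -0.08 to 0.05. These counts depend on single arrays: without either array of wild-type or null BM-MSC 19 to 26 windows passed in marrow, and without null ASC replicate 2 there were 34 in fat. The 2 comparisons share no array. They had 15 windows called with the same sign, 34.1% of those of marrow and 25.4% of those of fat, and window medians correlated at r = 0.43 over 252 windows, or 0.35 without chr14 window 1. Chromosome medians of the null effects correlated at r = 0.03 over 19 chromosomes, 7 of them with the same sign.

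**Figure D4:**
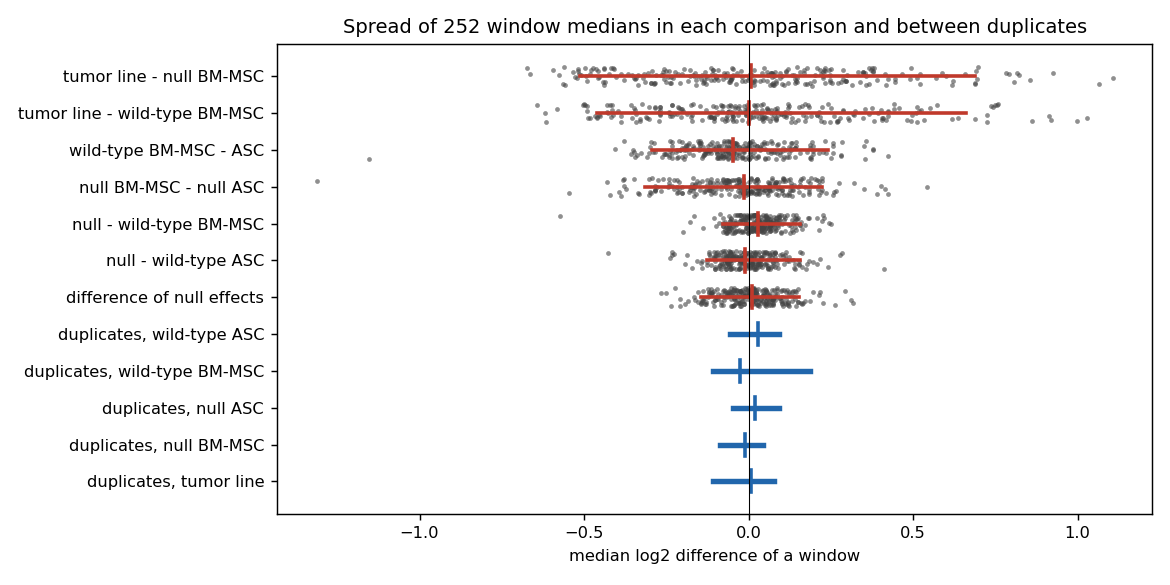
Median log2 difference (x axis) of each of the 252 windows in 7 comparisons (grey points, with the range from the 5th to the 95th percentile and the median in red) and the full range and median of replicate 2 minus replicate 1 within each group (blue). Null against wild-type cells spread with a standard deviation of 0.083 and 0.094, and the tumor line against null BM-MSC with 0.35.

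The shifted window of the null cells in both tissues was chr14 window 1 (0 to 10 Mb, 39 genes), at -0.57 in BM-MSC and -0.43 in ASC. Its value was 0.86 and 0.95 in wild-type ASC, 0.37 and 0.41 in null ASC, -0.20 and -0.15 in wild-type BM-MSC and -0.69 and -0.79 in null BM-MSC. The groups did not overlap, and wild-type ASC were highest. The window held 31 gene models or clones, whose median was -0.71 in BM-MSC and -0.48 in ASC, and 8 genes with a plain symbol, whose median was 0.03 and -0.06. Pdhb, a subunit of pyruvate dehydrogenase, rose by 0.31 ± 0.05 in BM-MSC against the window. Gene models in clusters can be near-identical copies, so their single values are uncertain. The second shifted window of ASC, chr17 window 10 at 0.41, held 11 genes, of which 1 had a plain symbol.

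In BM-MSC the highest median, 0.25, was in chr1 window 20, where Atf3, a stress-induced transcription factor, stood at -1.79 and -1.49 in wild-type and 0.64 and 0.62 in null cells. Its neighbour Batf3, a related factor, fell from -0.49 and -0.65 to -3.88 and -3.89, and was at 3.55 and 3.55 in the tumor line. In chr1 window 3, whose median was -0.18 and did not pass, Mcm3, a subunit of the replicative helicase, rose by 0.80 ± 0.07 and Gsta3, a glutathione transferase, fell by 2.51. In ASC, chr5 window 16 had a median of 0.28, and Brca2, which acts in repair by recombination, rose from -0.10 and 0.02 to 0.85 and 0.68 there. Rfc3, a subunit of the clamp loader, rose by 0.89 ± 0.07 in the same window, whose call was lost in 8 of 21 alternatives. In chr15 window 7, at -0.24, Pvt1, a long noncoding RNA next to Myc, fell by 1.20 and Ndrg1, a gene induced by hypoxia, by 0.92.

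Whether the null effect differed between tissues was tested directly as the difference of both effects (marrow minus fat). It passed in 35 windows (13.9%), 25 higher and 10 lower, of which 2 were shifted (0.794%): chr15 window 7 at 0.32 and chr12 window 5 at 0.31. Of all genes tested 14.7% were called higher and 16.6% lower. Without single arrays of wild-type ASC, null ASC or null BM-MSC 4 to 23 windows passed. The call of chr15 window 7 was lost in 9 of 22 alternatives, that of chr12 window 5 in 5 of 20 and that of chr7 window 16 in 3 of 22. In chr7 window 16, with a difference of 0.29, Slc22a18, a transporter in an imprinted cluster, stood at 2.00 and 1.86 in wild-type ASC and at -2.13 and -2.06 in null ASC. In BM-MSC it stood at 2.08 and 2.23 and at 2.12 and 2.05, so that among these 4 groups the null ASC arrays alone were low. The tumor line was low too, at -2.90 and -3.04. Cdkn1c, the CDK inhibitor p57 of the same cluster, stood at -0.38 and 0.02 in wild-type and 2.40 and 2.47 in null BM-MSC, with -1.04 and -0.89, and -0.19 and -0.47, in ASC.

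Marrow and fat cells differed along chromosomes with a standard deviation of window medians of 0.170 in wild-type and 0.189 in null cells. In wild-type cells 162 windows (64.3%) passed, 55 of them higher in BM-MSC than in ASC and the others lower. Of the windows 18 (7.14%) were shifted, or 4 with normexp background and 53 with the mean over genes. The median over all member genes was itself -0.05. Of all genes tested 25.2% were called higher and 28.5% lower. Chromosome 7 was lower in marrow in 15 of its 16 windows (median -0.26 over 1291 genes, 628 called lower and 173 higher). A run of 10 adjacent windows from 10 to 110 Mb of chromosome 7 had medians of -0.34 to -0.21. Chromosome 13 was higher in 10 of 12 (median 0.20) and chromosome 3 in 13 of 16 (median 0.17). In chr3 window 12, at 0.38, S1pr1, a receptor for sphingosine-1-phosphate, stood at -1.66 and -1.58 in wild-type ASC and at 4.12 and 4.17 in wild-type BM-MSC. In chr13 window 8, at 0.38, Glrx, a thiol oxidoreductase, rose by 2.57 ± 0.06 and Tert, the catalytic subunit of telomerase, by 1.64 ± 0.22 in marrow. In chr4 window 9, at -0.41, Plin2, a coat protein of lipid droplets, fell by 1.58.

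The null cells gave a second comparison of the tissues on other arrays. There 138 windows (54.8%) passed, 64 higher and 74 lower, and 21 (8.33%) were shifted, with 25.2% of all genes called higher and 29.9% lower. Window medians correlated with those of wild-type cells at r = 0.83 over 252 windows (0.79 without chr14 window 1), and chromosome medians at 0.92 over 19 chromosomes, 16 of them with the same sign. In both, 109 windows passed with the same sign, 67.3% of those called in wild-type and 79.0% of those called in null cells. Chromosome 7 had a median of -0.29 and 14 of 16 windows lower, chromosome 3 had 0.18 and chromosome 13 had 0.16. Lower runs covered 0 to 60 Mb (6 windows) and 80 to 150 Mb (7 windows) of chromosome 7. The genes left out by the detection rule did not always go the same way. In null cells they had a median of 0.07 on chromosome 7, 0.29 on chromosome 3 and 0.37 on chromosome 13, and over 119 windows their medians correlated with the members' at r = -0.02, with 1 of 5 shifted windows of the same sign. In wild-type cells they had -0.15, -0.13 and 0.03 on these chromosomes, and 9 of 11 shifted windows had the same sign. In chr12 window 10, the highest at 0.54 with 12 genes, Dio2, which activates thyroid hormone, stood at -0.68 and -0.56 in null ASC and at 4.39 and 4.41 in null BM-MSC. In chr7 window 10, at -0.54, Tlnrd1, a protein that binds actin, fell by 3.63 while Cemip, a hyaluronan-binding protein, rose by 2.76 ± 0.15.

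**Figure D5:**
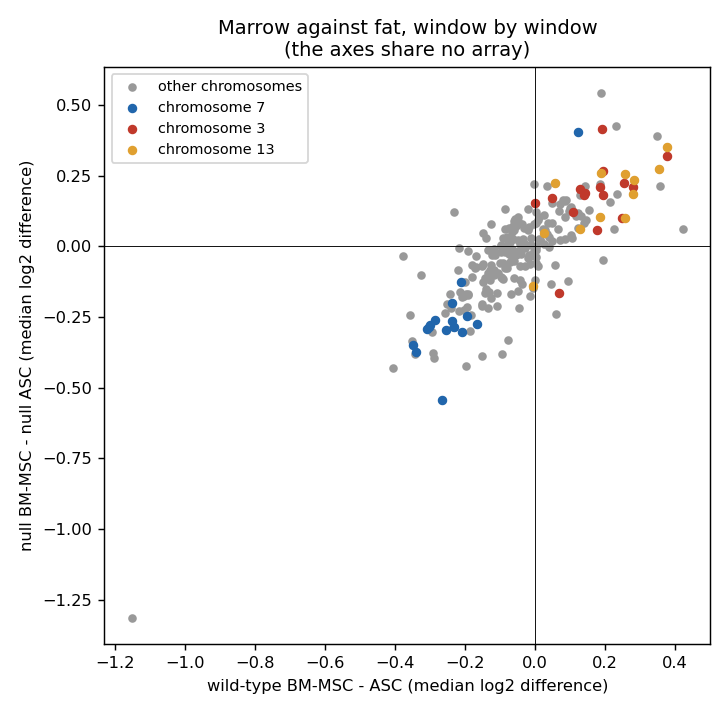
Median log2 difference of each of the 252 windows between BM-MSC and ASC in wild-type cells (x axis) and in null cells (y axis), which share no array. The points correlate at r = 0.83, with the windows of chromosome 7 mostly below 0 on both axes and chr14 window 1 at -1.15 and -1.31.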

How the data were processed

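Total RNA of 10 cultures was measured on 1-colour Agilent arrays, 1 array per culture. The deposited scanner files hold spot intensity, which per the file headers came from Feature Extraction 10.7.3.1 and was used after its background subtraction. The deposited series matrix holds values that read as log2 (medians 5.04 to 5.06, correlation with the scanner values 0.989 to 0.993), and how they were normalized is not stated by the labels. The submitters' processing notes name limma without a version or a role. Probe positions are those of mm9 in the scanner files.

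Outlier spots were removed (74 to 144 an array), the log2 processed signals of a probe were averaged, and the 75th percentile of each array was subtracted. Of 55681 probes 37 had no usable spot on some array, and 25265 were well above background on all 10 arrays. A window's size is the median over its genes of the group difference. For the test, a window's value in an array is the median of its genes after subtracting each gene's mean over 10 arrays. This was fitted with limma 3.58.1 (R 4.3.3; data.table, version 1.17.8) in 5 groups, with 5 residual and 5.38 prior degrees of freedom, two-sided, with Benjamini-Hochberg adjustment over 252 windows and a threshold of 0.05. Genes were fitted likewise over 22666 genes. The direction of a window that passed is that of its size. The fitted difference had the other sign in 3 and 5 such windows for the tumor line against null and wild-type BM-MSC. It did in 2 and 1 for marrow against fat in wild-type and null cells. It also did in 1 for null against wild-type ASC and in 1 for the difference of the null effects. Of the shifted windows, 0 had a fitted difference of the other sign. An exact permutation test of 2 against 2 arrays cannot go below p = 0.333. The fits were tested on simulated data.

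Named windows were the 3 highest and 3 lowest medians of a comparison, runs, and the windows of 29 growth genes, from a list of which some members are not reported here. Named genes came from up to 4 changed genes with and 2 against each such window. The promoters were the most and the least CpG-rich changed genes of the highest and lowest window. Members, gene lists and rules were chosen with earlier results of these data known. The comparison of null BM-MSC with null ASC, the centring on the groups compared and the restriction to plain symbols were added after seeing the data. Alternatives covered the values, background, scaling, window size and start, gene filter, summary, single arrays and a replicate block.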

Additional observations from a re-analysis of the deposited data

Results flagged for a closer look

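The null effect differed between marrow and fat in 35 windows by the test of the difference itself (limma, adjusted p under 0.05). Among those named were chr15 window 7 (difference of effects 0.32), chr12 window 5 (0.31), chr7 window 16 (0.29) and chr17 window 10 (-0.23). The last held 11 genes, of which 1 had a plain symbol.

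Single genes of such windows whose null effect differed between the tissues were Slc22a18 (3.96 on the log2 scale), Ccn4, a matricellular target of Wnt signalling (2.29), Cdkn1c (1.98) and Ccnd1 (1.82). Ccn4 stood at 2.57 and 2.68 in wild-type BM-MSC, 4.14 and 4.19 in null BM-MSC, 4.74 and 4.73 in wild-type ASC and 3.94 and 4.03 in null ASC.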

How the results depend on the processing

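Of the counts of windows that passed, 138 stayed within 1.5 times the reported value and 30 did not. Null against wild-type BM-MSC (44 windows) gave 130 with the mean over genes, 88 with 5 Mb windows (of 435), 29 with 1 gene per 100 kb, 23 with genes centred on the groups compared and 74 with plain symbols only, and 19 to 50 with single arrays left out. Null against wild-type ASC (59) gave 93 with quantile normalization, 136 with the mean, 104 with 5 Mb windows and 98 with plain symbols, and 34 to 79 with single arrays left out. The difference of the null effects (35) gave 54, 129 and 65 with quantile normalization, the mean and plain symbols, 21 with a looser filter on dim probes, 22 with 1 gene per 100 kb, 9 with genes centred on the groups compared, and 4 to 47 with single arrays left out. The tumor line gave 343 and 329 with 5 Mb windows against null and wild-type BM-MSC, and 180 to 209 and 182 to 207 with single arrays left out. Marrow against fat gave 126 to 160 in wild-type and 113 to 152 in null cells with single arrays left out, and null cells gave 209 with the mean and 226 with 5 Mb windows. The causes were not tested.

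Median differences of named windows kept their direction and call in 843 of the alternatives, lost the call in 37, gained it in 9 and turned in 4: chr1 window 3 in null BM-MSC (0.11 with 1 gene per 100 kb), chr5 window 2 there (-0.0029 with the mean and -0.49 with the looser filter) and chr12 window 5 in the difference of effects (-0.14 with 1 gene per 100 kb). Gene differences kept theirs in 3511 alternatives, lost the call in 81 and gained it in 5, with 3 turned among genes that did not pass: E2f3 (-0.0091 in the series matrix, and -0.016 to 0.052 without either tumor line array) and Nf1 (-0.27 to 0.070 without either tumor line array). Over all alternatives 68 to 188 windows were shifted in the tumor line against null BM-MSC (94 reported) and 58 to 160 against wild-type BM-MSC (88), with the lowest under normexp background and the highest with 5 Mb windows. The ranges were 4 to 53 for marrow against fat in wild-type cells (18), 13 to 51 in null cells (21), 0 to 6 and 1 to 8 for null against wild-type BM-MSC (1) and ASC (2), and 0 to 8 for their difference (2).

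Deviations of arrays with the same replicate number correlated at -0.12 to 0.12 between groups over genes and at -0.35 to 0.34 over windows, with both signs. The reported fits did not use the numbers to pair cultures, and whether cultures of the same number shared handling was not tested. With the replicate block 39, 58, 32, 202, 194, 149 and 139 windows passed in null against wild-type BM-MSC and ASC, their difference, the tumor line against null and wild-type BM-MSC, and marrow against fat in wild-type and null cells.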
